A study of Mus musculus with 15 samples.

Results

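The genes of endothelin, nitric oxide and cGMP signaling were followed in the kidneys of 15 mice. The set holds 10 genes, taken by name from the GENCODE annotation and not by a threshold on their values: Edn1, Ece1, Ednra, Ednrb, Nos1, Nos3, Gucy1a1, Gucy1b1, Npr1 and Pde5a. Of the 13929 annotated genes with a transcript in all 15 files, 9 belonged to the set. Nos1 was not analysed here, because no transcript of it met that condition. Wild-type (WT) male C57BL/6 mice entered the study at 8 weeks of age, and 5 were placed in each group. Control mice received saline through osmotic pumps for 28 days, and both other groups received angiotensin II (Ang II) at 500 ng/kg/min through the same kind of pump over 28 days. Mice of the third group (Ang II + QDG, from here on QDG) also received Qingda granule (QDG), a Chinese herbal formula, by gavage at 1.145 g/kg/day, while Control and Ang II mice were given water in its place. RNA was prepared from kidney tissue, so each value averages over all cell types of that tissue. For the libraries, the study's methods name removal of ribosomal RNA and then a kit that isolates poly(A) mRNA.

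Endothelin 1 is made as a precursor, is cleaved to its active form by a converting enzyme, and acts on receptors that constrict vessels when they sit on smooth muscle. The type B receptor on endothelial cells and on the collecting duct instead raises nitric oxide production and sodium excretion. Nitric oxide made by the synthases activates soluble guanylate cyclase and natriuretic peptides activate a membrane-bound guanylate cyclase, both of which form cGMP, a messenger that relaxes vessels and promotes sodium loss until phosphodiesterases break it down.

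Nos3 and Npr1 were the members that were upregulated in Ang II vs. Control. The FPKM of Nos3 (endothelial nitric oxide synthase) was 1.78 times as high in Ang II as in Control, and that of Npr1 (the membrane-bound guanylate cyclase that is the receptor of atrial natriuretic peptide) was 1.5 times as high. The Nos3 call held in each of the 15 fits that left out 1 mouse. The Npr1 call was lost in 7 of them, and also with median scaling or quantile normalization. No member passed the test in QDG vs. Ang II, and none passed the adjusted threshold in QDG vs. Control. The ligand, its converting enzyme, both endothelin receptors, both subunits of soluble guanylate cyclase and Pde5a did not pass the test in any comparison.

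The promoter of Npr1 is shown because Npr1 was upregulated, and those of Gucy1a1 and Gucy1b1 because these neighboring genes encode the subunits of 1 enzyme and their levels across mice are compared further on. Each line gives the 250 bases upstream of a RefSeq start site on GRCm38.p6, 5′ to 3′ on the strand of the gene, with the motif GGGCGG (the GC box) or its reverse complement CCGCCC in capitals. RefSeq windows were found for 9 of the 10 members, all but Nos3.
Npr1, chr3:90465867-90466116, minus strand: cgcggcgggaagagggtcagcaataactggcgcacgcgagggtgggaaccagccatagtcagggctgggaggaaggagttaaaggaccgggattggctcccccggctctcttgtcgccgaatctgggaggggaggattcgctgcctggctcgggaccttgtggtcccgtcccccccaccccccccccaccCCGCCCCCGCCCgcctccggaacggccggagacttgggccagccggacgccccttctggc
Gucy1a1, chr3:82145651-82145900, minus strand: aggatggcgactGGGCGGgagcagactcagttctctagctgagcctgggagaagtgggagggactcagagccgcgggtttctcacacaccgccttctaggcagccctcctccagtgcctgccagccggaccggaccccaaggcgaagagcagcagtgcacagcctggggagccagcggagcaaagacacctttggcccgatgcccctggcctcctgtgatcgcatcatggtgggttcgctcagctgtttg
Gucy1b1, chr3:82074712-82074961, minus strand: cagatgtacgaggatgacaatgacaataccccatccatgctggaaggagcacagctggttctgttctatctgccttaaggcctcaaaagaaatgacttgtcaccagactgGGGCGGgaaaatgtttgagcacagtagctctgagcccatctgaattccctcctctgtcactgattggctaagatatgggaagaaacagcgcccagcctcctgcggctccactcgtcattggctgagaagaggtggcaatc
The Npr1 window holds 2 GC boxes that follow each other, beginning 60 and 54 bases before the start site. The windows of Gucy1a1 and Gucy1b1 hold 1 each, at 238 and 140 bases before the start, and the window of a further start site of Gucy1a1, chr3:82145074-82145323, has none. The letters GGGCGG, searched on both strands, occur in 32.7% of 32851 RefSeq windows of the same length. None of these windows holds TATAAA, which occurs in 12.4% of all windows. These matches describe the letters of the windows, and binding was not measured.

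The values are FPKM (fragments scaled to transcript length and library size), summed over the annotated transcripts of each gene, and are therefore per length and can be set side by side between genes. They implied totals of 68922800 to 81329500 reads or fragments per mouse. The median log2 fold change of all 12364 genes tested was 0.08 in Ang II vs. Control, -0.02 in QDG vs. Ang II and 0.06 in QDG vs. Control. All 8 proximal tubule markers were present, led by Slc34a1, with a mean of 2019 FPKM in Control. Of 8 adrenal markers, 1 (Star, 0.819 FPKM in Control) was listed. Ren1, whose mRNA Ang II infusion is known to lower, was at 33.2 FPKM in the Control mean and at 30.1 FPKM in the Ang II mean, a log2 fold change of -0.18 that did not pass (limma, adjusted p = 0.719). Akr1b7, the other renin cell marker measured, was lower in Ang II than in Control (-0.42, adjusted p = 0.0462 from limma). In QDG mice, which received the same infusion, it was higher than in Ang II (0.62, adjusted p = 0.0222 from limma). Its means were 1.56 FPKM in Control, 0.906 FPKM in Ang II and 1.93 FPKM in QDG. Ang II mouse 1 and Control mouse 2 stood apart in tissue content: their adipose markers summed to 293 and 173 FPKM, against 26.3 to 104 FPKM in the other 13 mice.

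The members were expressed at low to middle levels of the kidney transcriptome. Averaged over the 15 mice, Npr1 had the highest level with 6.61 FPKM, above 54.4% of all listed genes. Ednrb followed with 4.52 FPKM, Gucy1a1 with 3.95 FPKM, Gucy1b1 with 2.55 FPKM and Nos3 with 2.19 FPKM. Pde5a had 1.27 FPKM, Ece1 1.03 FPKM, Edn1 0.709 FPKM and Ednra 0.706 FPKM, which put the last of these, Edn1 and Ednra, above 8.64% and 8.55% of all genes. The place of Ece1 above Edn1 and Ednra depends on a transcript without a coding sequence. Its coding transcript alone had a mean of 0.513 FPKM. Edn1 and Ednra did not differ beyond the spread between mice, and neither did the neighbors Pde5a and Ece1 or Ednrb and Gucy1a1, whose gaps were smaller than the SD in any group of either gene of the pair. Edn1 and Ednra did not reach 1 FPKM in 5 mice, the minimum for the test, so 7 members were tested and the values of these 2 come from a fit without that minimum.

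**Figure D1:**
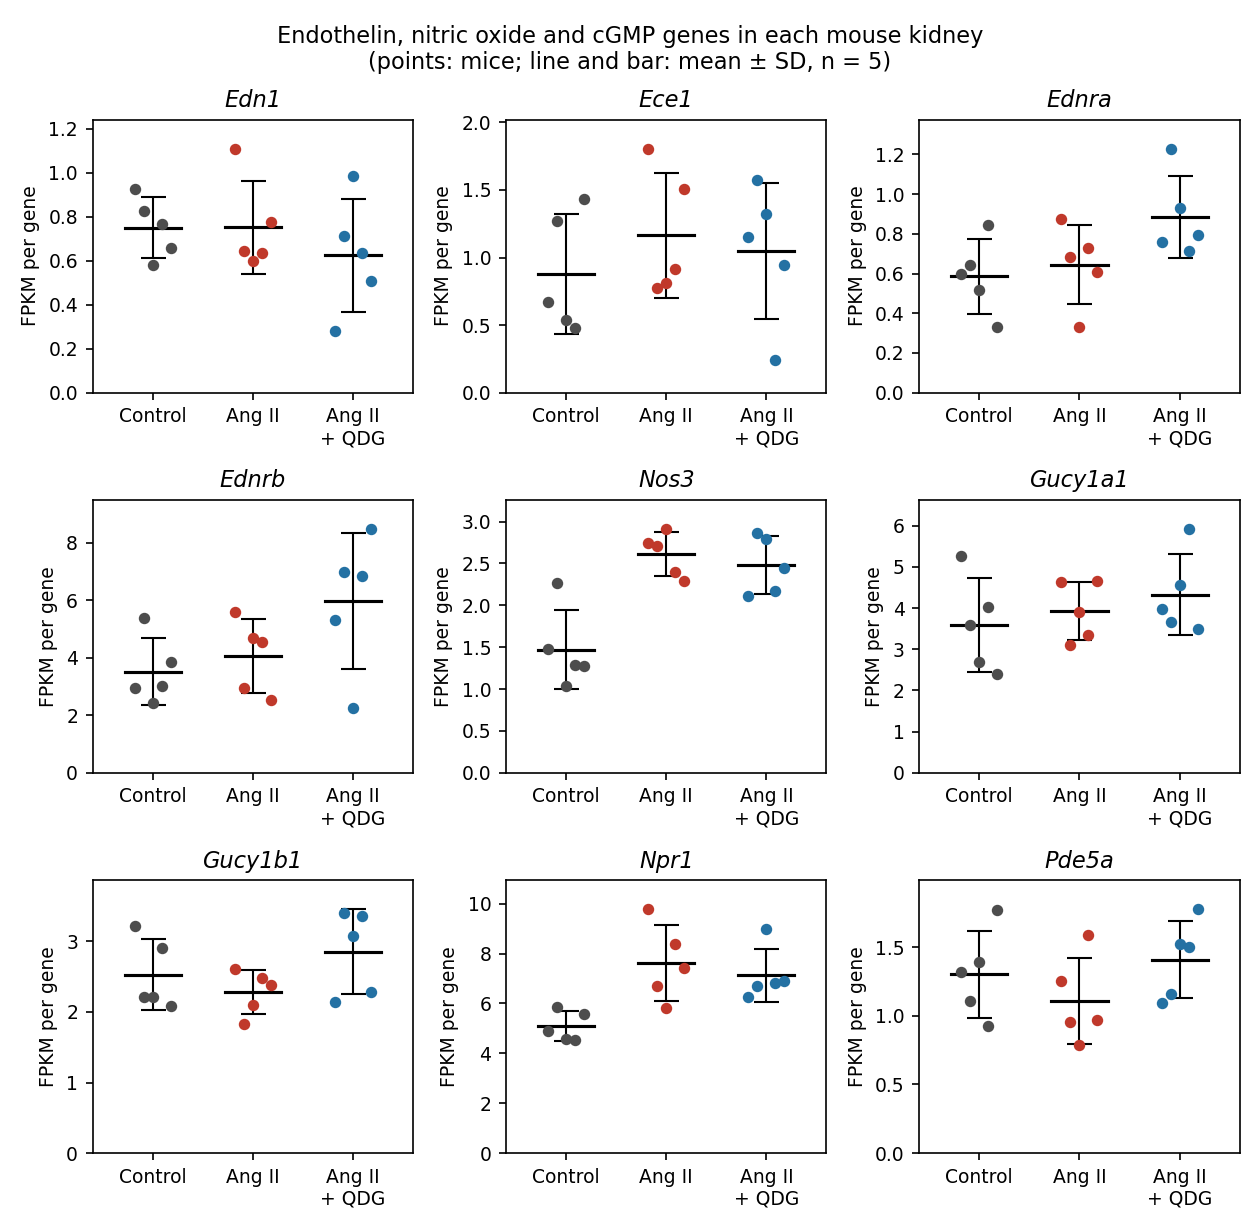
FPKM per gene (vertical axes, starting at 0) of the 9 members analysed, with 1 point per mouse in each group (QDG labeled Ang II + QDG) and a line and bar for the mean ± SD (n = 5). For Nos3 the 5 Ang II mice lie between 2.29 and 2.91 FPKM and the 5 Control mice between 1.04 and 2.26 FPKM, and for Npr1 the lowest QDG mouse, at 6.27 FPKM, lies above the highest Control mouse, at 5.84 FPKM.

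Edn1 (chromosome 13, 42301476 to 42307990, plus strand, GRCm38), which encodes the ligand endothelin 1, was low in every group. Its levels were 0.925, 0.828, 0.579, 0.765 and 0.656 FPKM in the Control mice, 1.11, 0.643, 0.597, 0.635 and 0.778 FPKM in the Ang II mice, and 0.282, 0.712, 0.984, 0.633 and 0.507 FPKM in the QDG mice. The 3 groups overlapped, and the highest and lowest mice belonged to Ang II and to QDG, respectively. The Ang II and Control means were 0.752 ± 0.211 and 0.751 ± 0.137 FPKM (SD, n = 5), and the 95% interval of the log2 fold change between them ran from -0.25 to 0.25. For QDG vs. Ang II the log2 fold change was -0.12 (95% interval -0.37 to 0.13, adjusted p = 0.674 in the fit without the minimum). These levels corresponded to 42 to 188 reads per mouse (median 109), the lowest median of the 9 members.

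Ece1 (chromosome 4, 137862237 to 137965229, plus strand) encodes endothelin-converting enzyme 1. Its levels were 0.673, 1.27, 0.537, 0.475 and 1.43 FPKM in Control, 1.80, 0.773, 0.814, 0.916 and 1.51 FPKM in the Ang II mice, and 1.15, 1.57, 1.32, 0.243 and 0.946 FPKM in QDG. The lowest 4 mice belonged to QDG and Control, and the groups overlapped. The log2 fold change in Ang II vs. Control was 0.21 (standard error 0.21, 95% interval -0.25 to 0.67, adjusted p = 0.610). Its sum rests on transcripts of very unequal length: Ece1-202, a processed transcript of 321 bases without a coding sequence, made up 50.2% of the FPKM, and the coding transcript Ece1-201 of 4816 bases made up 49.8%. A few reads on the short transcript weigh as much as many on the long one, and among the 9 members Ece1 had the largest SD relative to its mean in all 3 groups.

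Ednra (chromosome 8, 77663031 to 77724464, minus strand), the type A receptor through which endothelin constricts smooth muscle, had 0.598, 0.641, 0.515, 0.845 and 0.330 FPKM in Control. The Ang II mice had 0.873, 0.685, 0.331, 0.730 and 0.606 FPKM, and the QDG mice 0.760, 1.23, 0.929, 0.716 and 0.796 FPKM. The QDG mice lay toward the upper end, with 2 of 5 above every Control mouse and all 5 above the Control median. Against Control, the QDG mice had a log2 fold change of Ednra of 0.25 (standard error 0.11). An exact two-sided permutation test of 5 against 5 gave p = 0.0397, while the limma p adjusted over all genes in the fit without the minimum was 0.343. The difference was 0.05 for Ang II vs. Control (95% interval -0.19 to 0.29), and 0.20 for QDG vs. Ang II (95% interval -0.04 to 0.44, adjusted p = 0.421).

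Ednrb (chromosome 14, 103814625 to 103844402, minus strand), the type B receptor of endothelium and collecting duct, was the endothelin gene with the highest level. Control mice had 2.96, 5.37, 2.41, 3.00 and 3.85 FPKM, Ang II mice 5.59, 2.94, 4.70, 4.56 and 2.52 FPKM, and QDG mice 5.31, 7.0, 2.25, 6.84 and 8.47 FPKM. The QDG group held both the 3 highest mice and the lowest mouse of all 15. Between Ang II and Control the log2 fold change was 0.16 with a standard error of 0.27 (adjusted p = 0.781). For QDG vs. Ang II it was 0.41 (standard error 0.27, 95% interval -0.17 to 1.00, adjusted p = 0.491), and for QDG vs. Control 0.57 (95% interval -0.01 to 1.16, adjusted p = 0.360). Without QDG mouse 3 the QDG vs. Ang II value was 0.67 (adjusted p = 0.166). With the most abundant transcript alone it was 0.06 (adjusted p = 0.969). That transcript is Ednrb-203, which was listed at 0 in QDG mouse 3.

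The lowest Ednrb value depended on which transcripts were counted. The sums above use Ednrb-201 and Ednrb-203, which are listed for all 15 mice, and in QDG mouse 3 Ednrb-203 was listed at 0. Another coding transcript, Ednrb-202, is listed only in the files of the 10 Ang II and QDG mice, and in that same mouse it had 6.96 FPKM, against 0.0142 to 0.317 FPKM in the other 9. With all 3 transcripts summed, the Ang II mice had 5.81, 3.06, 5.02, 4.57 and 2.54 FPKM and the QDG mice 5.33, 7.18, 9.21, 7.03 and 8.65 FPKM. In that sum 4 of 5 QDG mice lay above every Ang II mouse, with means of 7.48 ± 1.52 and 4.2 ± 1.36 FPKM (SD, n = 5). The log2 fold change of that sum was 0.73 (standard error 0.21). The exact permutation p was 0.0159, and limma's adjusted p of 0.0856 missed the threshold. Control files do not list Ednrb-202, so against Control that sum would count it in one group only, and no such difference is given.

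**Figure D2:**
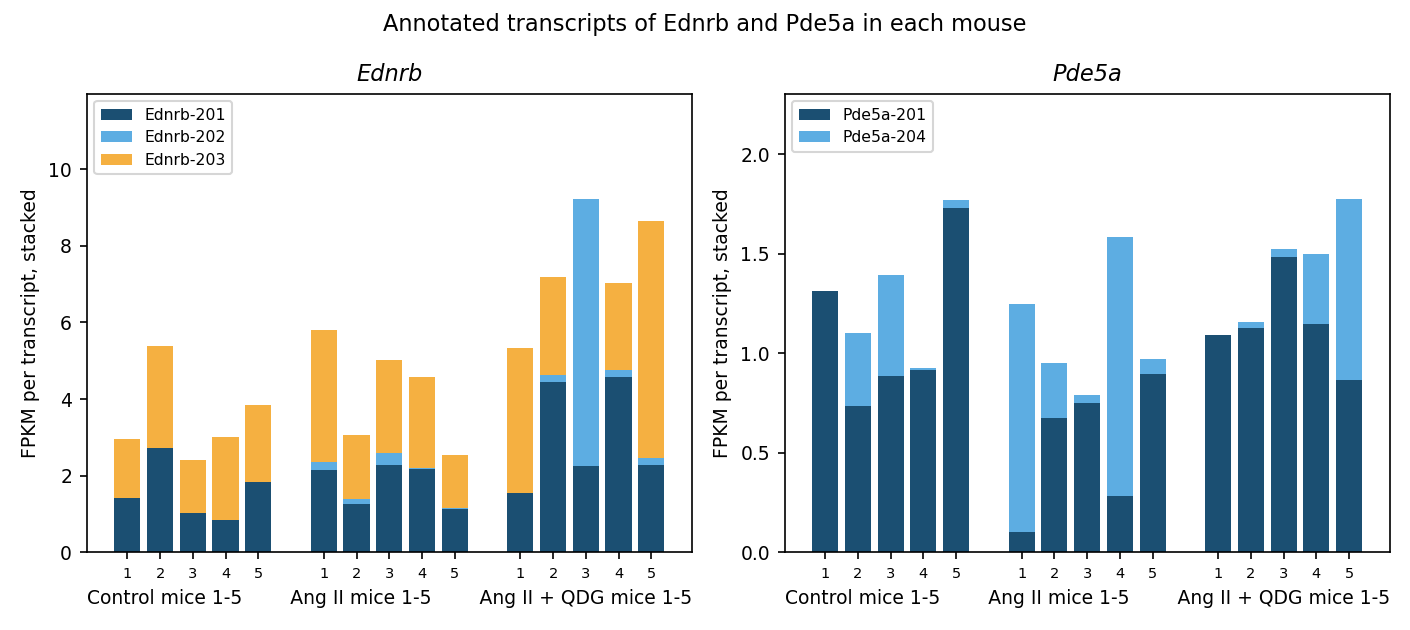
Stacked FPKM of the annotated transcripts of Ednrb (left) and Pde5a (right) in each mouse, 1 bar per mouse, with a color per transcript. In QDG mouse 3 the Ednrb bar of 9.21 FPKM consists mainly of Ednrb-202, which is not listed for Control, and in Ang II mice 1 and 4 the Pde5a bars consist mainly of Pde5a-204.

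Nos3 (chromosome 5, 24364810 to 24384474, plus strand) encodes the synthase that makes nitric oxide in endothelium. Its levels were 1.48, 2.26, 1.04, 1.29 and 1.28 FPKM in Control, 2.75, 2.71, 2.91, 2.40 and 2.29 FPKM in the Ang II mice, and 2.11, 2.86, 2.79, 2.17 and 2.45 FPKM in QDG. All 5 Ang II mice were above every Control mouse, although Control mouse 2 came just below the lowest of them. The means were 1.47 ± 0.469, 2.61 ± 0.259 and 2.48 ± 0.345 FPKM (SD, n = 5). On the log2(FPKM + 1) scale Nos3 was 0.56 higher in Ang II than in Control (standard error 0.12, 95% interval 0.31 to 0.82, adjusted p = 0.0174 from limma). The exact permutation test gave p = 0.00794, the smallest that 5 against 5 mice allow. The call held in each of the 15 fits that left out 1 mouse, with adjusted p from 0.00598 to 0.0448. Without Ang II mouse 1 the Nos3 change was 0.55 on the log2 scale, and without Control mouse 2 it was 0.67.

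The levels of Nos3 in QDG overlapped those in Ang II, with 2 of 5 mice below every Ang II mouse, and all 5 were above the Control median. QDG and Ang II mice differed by a log2 fold change of -0.06 (95% interval -0.31 to 0.20, adjusted p = 0.864). For QDG vs. Control it was 0.51 (95% interval 0.25 to 0.76), with 3 of 5 mice above every Control mouse and an exact permutation p = 0.0238, but the adjusted p of 0.0963 missed the threshold. Without Control mouse 2, the highest of its group, this comparison passed (log2 fold change 0.61, adjusted p = 0.0252). The value of Nos3 rests on 323 to 951 reads per mouse on 1 transcript. On the opposite strand, exons of Gm15587 cover 25.2% and those of Atg9b 7.12% of the Nos3 exon bases. The counting is not stated to use strand, so reads of these genes could not be told from reads of Nos3, and neither gene has a transcript in all 15 files.

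The synthase is a gene of endothelial cells, so the endothelial markers are given beside it. Of 12 endothelial markers 3 were upregulated in Ang II vs. Control: Egfl7 (log2 fold change 0.92, adjusted p = 0.0140), Ehd3 (0.51, adjusted p = 0.0286) and Tie1 (0.31, adjusted p = 0.0472). Differences were positive for 11 of the 12, with a median of 0.29. Of all 12364 genes, 4.95% were upregulated in this comparison and 8015 had a positive difference, with a median of 0.08. Their summed level was 156 to 230 FPKM in Control, 199 to 246 FPKM in Ang II and 197 to 240 FPKM in QDG. Pecam1 (0.44, adjusted p = 0.643) and Cdh5 (0.20, adjusted p = 0.286), which define the cell type, did not pass the test, and none of the 12 markers was at 0. In whole kidney, a change in the number of cells of a type and a change in RNA per cell cannot be told apart, and the part of the endothelial markers in the change of Nos3 was not tested.

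Npr1 (chromosome 3, 90450591 to 90465866, minus strand) is the guanylate cyclase through which atrial natriuretic peptide lowers blood pressure. Control mice had 4.90, 5.84, 4.57, 4.54 and 5.59 FPKM, Ang II mice 9.77, 6.69, 5.82, 8.37 and 7.41 FPKM, and QDG mice 6.27, 6.70, 8.98, 6.80 and 6.91 FPKM. All Ang II mice but 1 were above every Control mouse, and the exception, Ang II mouse 3, was level with the highest Control mouse. The highest value belonged to Ang II mouse 1, which also had the highest fibroblast sum (53.7 FPKM) and smooth muscle sum (134 FPKM) of all 15 mice, and the highest Control value belonged to Control mouse 2. The means were 5.09 ± 0.597, 7.61 ± 1.53 and 7.13 ± 1.06 FPKM (SD, n = 5). Npr1 was higher in Ang II than in Control by a log2 fold change of 0.49 (95% interval 0.22 to 0.75, adjusted p = 0.0346 from limma), and the exact permutation test gave p = 0.0159. The call was lost in 7 of the 15 fits that left out 1 mouse, with adjusted p from 0.0211 to 0.0832: those without Control mouse 1, 3 or 4 and those without Ang II mouse 1, 2, 4 or 5. Without Ang II mouse 1 the log2 fold change was 0.40 (adjusted p = 0.0672), and without Control mouse 2 it was 0.53 (adjusted p = 0.0325). The call was also lost with median scaling (adjusted p = 0.0663) and with quantile normalization (0.0644).

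All 5 QDG mice were higher in Npr1 than any Control mouse. The log2 fold change was 0.41 (95% interval 0.15 to 0.68) and the exact permutation p was 0.00794, while the adjusted p from limma was 0.156. Such a separation toward higher values was found for 2.78% of all genes in this comparison, and 1 of the 7 members had it. Between QDG and Ang II the log2 fold change was -0.07 (95% interval -0.34 to 0.19, adjusted p = 0.825). The FPKM came to 93.5% from the coding transcript Npr1-201 and to 6.51% from Npr1-204, a retained intron, and the gene had 1368 to 3005 reads per mouse, the most of all members. The antisense gene Gm16048 covers 11.7% of its exon bases and has no transcript in all files.

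Markers of other cell types are given beside Npr1. Of 3 podocyte markers summed, Podxl (log2 fold change 0.35, adjusted p = 0.0277) was upregulated in Ang II vs. Control, and Nphs1 (0.18, adjusted p = 0.374) and Wt1 (0.18, adjusted p = 0.478) did not pass. The podocyte sums were 54.1 to 65.6 FPKM in Control, 67.4 to 82.4 FPKM in Ang II and 72.2 to 88.8 FPKM in QDG, which did not overlap between Control and Ang II. Podxl alone had means of 48.2 and 62.1 FPKM in Control and Ang II, beside summed means of 59.8 and 75.6 FPKM. The sums of 4 intercalated cell markers did not overlap either, at 62.2 to 67.9, 70.4 to 96.7 and 73.3 to 98.7 FPKM, and 1 of the 4, Slc26a4, was upregulated (0.49, adjusted p = 0.0312). Slc26a4 alone had means of 24.7 and 35.3 FPKM in Control and Ang II, beside summed means of 65.1 and 79.7 FPKM. Of all single genes in this comparison, 6.49% were separated toward higher values and 4.95% were upregulated. Of 10 smooth muscle, mesangial and pericyte markers 2 were upregulated, Tagln (0.59, adjusted p = 0.0325) and Pdgfrb (1.13, adjusted p = 0.0467), with sums of 61.1 to 76.1, 65.6 to 134 and 80.7 to 99.0 FPKM. The 5 red blood cell markers summed to 545 to 1362, 1115 to 1943 and 1557 to 2818 FPKM, with no overlap between Control and QDG. All 5 differences were positive in each comparison, and 1 passed the test, Hba-a1 in QDG vs. Control (1.17, adjusted p = 0.0257), where 0.129% of all genes did. Of the 12364 genes, 8015 were positive in Ang II vs. Control, 5729 in QDG vs. Ang II and 7731 in QDG vs. Control. The part of these markers in the changes of Npr1 and Nos3 was not tested.

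**Figure D3:**
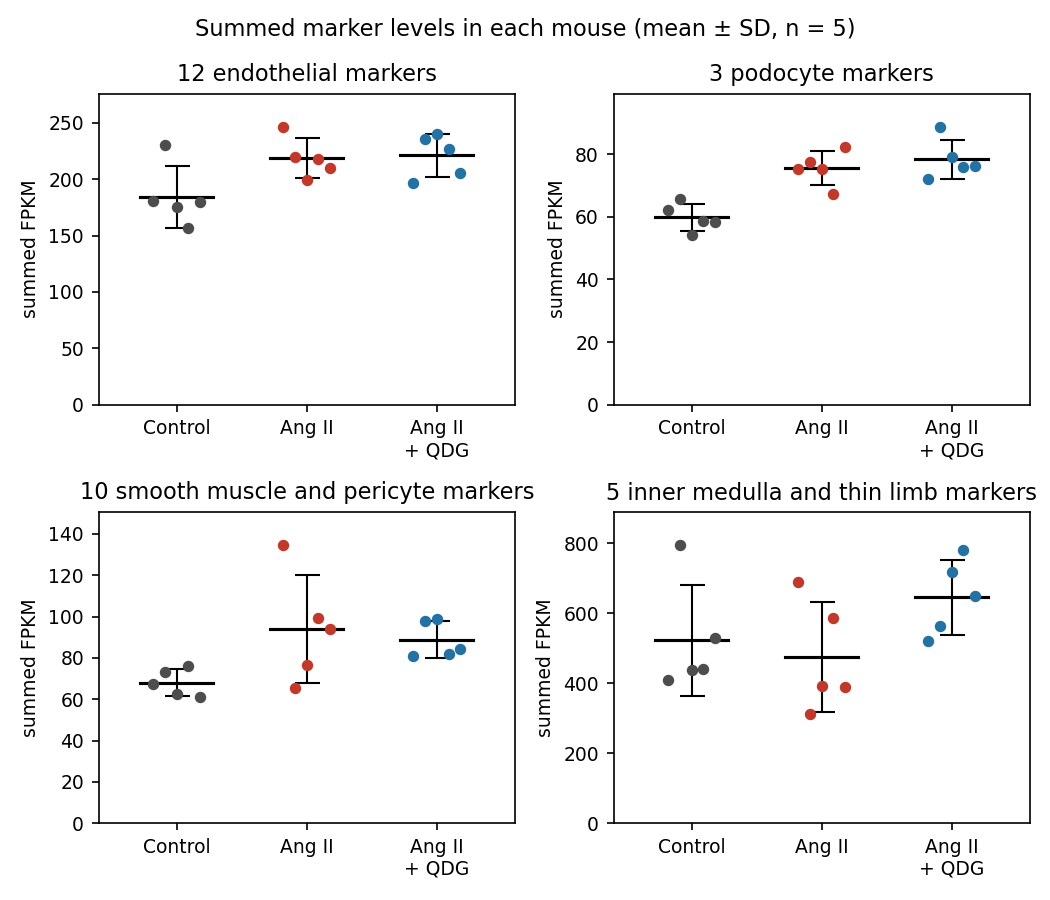
Summed FPKM (vertical axes, starting at 0) of 4 marker lists, with 1 point per mouse in each group and a line and bar for the mean ± SD (n = 5). The podocyte sum is at least 67.4 FPKM in every Ang II mouse and at most 65.6 FPKM in every Control mouse, while the endothelial, smooth muscle and inner medulla sums overlap between Control and Ang II.

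Gucy1a1 (chromosome 3, 82092427 to 82145789, minus strand) encodes the alpha subunit of soluble guanylate cyclase, the receptor of nitric oxide. Control mice had 5.26, 3.59, 2.68, 4.02 and 2.41 FPKM, Ang II mice 4.64, 3.11, 3.90, 3.35 and 4.65 FPKM, and QDG mice 3.98, 3.66, 4.57, 5.92 and 3.50 FPKM. No Ang II mouse lay outside the range of Control, and 1 QDG mouse lay above it. The log2 fold change between Ang II and Control was 0.12 (95% interval -0.24 to 0.49, adjusted p = 0.719), and between QDG and Ang II it was 0.11 (95% interval -0.26 to 0.47, adjusted p = 0.816).

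Gucy1b1 (chromosome 3, 82032006 to 82074689, minus strand) encodes the beta subunit, which carries the heme that binds nitric oxide. Its levels were 3.22, 2.21, 2.22, 2.90 and 2.09 FPKM in Control, 2.6, 1.84, 2.10, 2.48 and 2.38 FPKM in the Ang II mice, and 2.14, 3.40, 3.07, 3.36 and 2.28 FPKM in QDG. The QDG mice were split, 3 above every Ang II mouse and 2 among them. The log2 fold change was -0.10 (95% interval -0.37 to 0.17, adjusted p = 0.695) in Ang II vs. Control and 0.22 (95% interval -0.05 to 0.49, adjusted p = 0.411) in QDG vs. Ang II.

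The levels of these subunits were compared across mice. Over the 15 mice Pearson's r on the log2(FPKM + 1) scale was 0.66 (permutation p = 0.00730) and Spearman's rho 0.65 (permutation p = 0.0114). Adjusted over the 21 pairs of tested members these were 0.0766 and 0.148, so neither passed. Without the 2 mice farthest from the median of Gucy1a1 r was 0.54, and with each mouse taken as its deviation from its group mean it was 0.70. Of the 21 pairs Nos3 and Npr1 alone passed for Pearson's r (permutation p adjusted to 0.0225) but not for Spearman's rho (0.148). Control differed from Ang II in both of these genes, so no r over all mice is given, and the deviations from the group means had r = 0.31.

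Pde5a (chromosome 3, 122728947 to 122859374, plus strand) encodes the phosphodiesterase that breaks down cGMP in smooth muscle. Control mice had 1.31, 1.10, 1.39, 0.926 and 1.77 FPKM, Ang II mice 1.25, 0.951, 0.790, 1.59 and 0.971 FPKM, and QDG mice 1.09, 1.16, 1.52, 1.5 and 1.77 FPKM. The groups overlapped, with 4 of 5 Ang II mice under the Control median and all 5 QDG mice above the Ang II median. The log2 fold change was -0.13 (95% interval -0.40 to 0.15, adjusted p = 0.606) in Ang II vs. Control and 0.20 (95% interval -0.08 to 0.47, adjusted p = 0.483) in QDG vs. Ang II.

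The coding transcripts of Pde5a divided the sum differently from mouse to mouse. Pde5a-201 had 1.31, 0.734, 0.887, 0.918 and 1.73 FPKM in Control, 0.10, 0.674, 0.749, 0.281 and 0.897 FPKM in the Ang II mice, and 1.09, 1.13, 1.48, 1.15 and 0.868 FPKM in QDG. It was lowest in Ang II mice 1 and 4, where Pde5a-204 had 1.15 and 1.3 FPKM. The share of Pde5a-201 in the sum averaged 85.4% ± 18.6 in Control, 56.8% ± 41.3 in Ang II and 84.0% ± 21.7 in QDG (SD, n = 5). Tested as 1 of 28812 transcripts, Pde5a-201 had a log2 fold change of -0.47 in Ang II vs. Control (limma, adjusted p = 0.206) and of 0.50 between QDG and Ang II (adjusted p = 0.278), and neither passed. The unadjusted p were 0.0178 and 0.0124, and the Ang II mean, 0.540 FPKM, was less than 50% of the Control mean and of the QDG mean (1.14 FPKM).

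In Ang II vs. Control 2 of the 7 members tested, Nos3 and Npr1, had an adjusted p under 0.05, where 5.94% of the 12364 genes tested did, and both were higher, where 4.95% of all genes were. The 2 called became 1 in 7 of the 15 fits that left out 1 mouse. They also became 1 with quantile normalization, median scaling, only the 2 groups compared, protein coding transcripts only or the most abundant transcript. Complete separation toward higher values was found for 1 member, Nos3, and for 6.49% of all genes. As a gene sum on the log2(FPKM + 1) scale, no member had a fold change of at least 2 with an unadjusted p under 0.05, as 1.05% of all genes did. The study applied this criterion to single transcripts instead of gene sums. The median log2 fold change of the 7 members was 0.16, beside 0.08 for all genes, with 5 positive and 2 negative. Of the 12364 genes, 8015 were positive and 4349 negative.

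Between QDG and Ang II, 0 of the 7 members had an adjusted p under 0.05 by limma, where 1.81% of all genes did, and at an unadjusted p under 0.05 there were also 0 members, where 16.4% of all genes passed. The exact permutation test was also run for each, and Gucy1b1 had the lowest p of the 7 tested, 0.111. The median log2 fold change was 0.11, with 4 members positive and 3 negative, beside -0.02 for all genes, of which 5729 were positive and 6635 negative. The same Ang II mice enter this comparison and Ang II vs. Control.

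For QDG vs. Control, 0 of the 7 had an adjusted p under 0.05 by limma, where 0.129% of all genes did. At an unadjusted p under 0.05 there were 2, Nos3 and Npr1, where 14.4% of all genes passed, and by exact permutation the same 2 of the 7 were under 0.05. All 7 differences were positive, with a median of 0.23 beside 0.06 for all genes, of which 7731 were positive and 4633 negative. This comparison shares its Control mice with Ang II vs. Control.

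**Figure D4:**
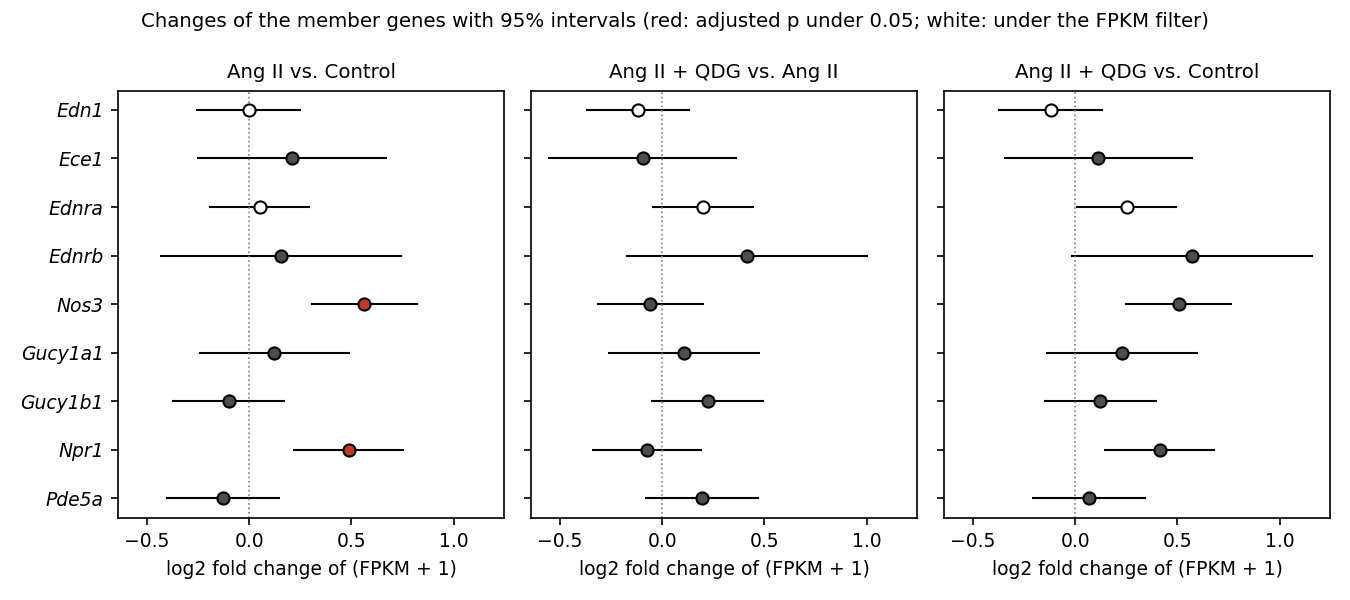
Log2 fold change of FPKM + 1 (horizontal axes) with its 95% interval for the 9 members in the 3 comparisons, red where the adjusted p was under 0.05 and white where the gene was under the FPKM minimum and its value comes from the fit without it. Red points are Nos3 at 0.56 and Npr1 at 0.49 in Ang II vs. Control, and the intervals of both lie across 0 in QDG vs. Ang II.

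The rest of the pathway was described with 97 other genes, of which 73 had a transcript in all files and 67 were tested. In Ang II vs. Control 4 of the 67 were upregulated, a share near the 4.95% of all genes, and 0 were downregulated, and the median log2 fold change of the 67 was 0.11. There were 20 with an unadjusted p under 0.05, where 22.8% of all genes passed. The 4 called became 2 with quantile normalization or median scaling, 1 with only the 2 groups compared or protein coding transcripts only, and 0 with the most abundant transcript per gene. Without single mice the count called was 1 to 6, and it was at most 2 without Control mouse 1, 3, 4 or 5 or without Ang II mouse 1, 2 or 5. Cyb5r3, a reductase that acts on the hemoglobin alpha of endothelium, a scavenger of nitric oxide, rose from 65.6 ± 3.32 to 76.9 ± 2.83 FPKM (SD, n = 5), with all 5 Ang II mice above every Control mouse (log2 fold change 0.23, adjusted p = 0.0150). Akt1, a kinase that phosphorylates and activates endothelial nitric oxide synthase, had 26.8 ± 2.84 and 32.6 ± 2.62 FPKM (0.27, adjusted p = 0.0494). The other two act downstream of the endothelin receptors. Arhgef1, an exchange factor for RhoA, had 10.2 ± 1.58 and 14.1 ± 2.03 FPKM (0.42, adjusted p = 0.0282), and Grk2, a kinase that desensitizes G protein-coupled receptors, had 13.7 ± 1.22 and 16.3 ± 0.570 FPKM (0.24, adjusted p = 0.0328).

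By list, these calls were 2 of 28 tested genes of nitric oxide synthesis, partners and substrate supply and 2 of 17 genes of endothelin receptor signaling, beside 4.95% of all genes. None of the 2 other genes of endothelin production and breakdown, the 6 of guanylate cyclases and natriuretic peptides, the 6 cGMP effectors or the 8 phosphodiesterases and exporters was called by limma in any comparison. In these lists 0, 0, 1 and 4 genes, in that order, had an unadjusted p under 0.05 between Ang II and Control. Vasp, a cytoskeletal protein that cGMP-dependent kinase phosphorylates, came nearest among the effectors, with means of 10.7 ± 1.64 FPKM for Control and 14.0 ± 1.93 FPKM for Ang II (log2 fold change 0.36, adjusted p = 0.0589).

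Between QDG and Ang II, 1 of the 67 genes was called, no more than the 1.81% of all genes, and it was downregulated. Dynll1, a dynein light chain that binds and inhibits neuronal nitric oxide synthase, had 22.5 ± 2.20 FPKM in Ang II and 16.0 ± 1.85 FPKM in QDG (SD, n = 5). All 5 QDG mice were below every Ang II mouse (log2 fold change -0.47, standard error 0.11, adjusted p = 0.0408 from limma). In Control it had 20.8 ± 3.21 FPKM. The call was lost in 10 of the 15 fits that left out 1 mouse: those without Control mouse 4, any Ang II mouse, or QDG mouse 2, 3, 4 or 5. It was lost as well with quantile normalization, median scaling, only the 2 groups compared, protein coding transcripts only or the most abundant transcript. Adh5, which breaks down S-nitrosoglutathione, had 134 ± 19.7 FPKM in Ang II and 109 ± 6.30 FPKM in QDG with no overlap between the groups, as for 3.44% of all genes in that direction (log2 fold change -0.29), and Asl, an enzyme that supplies arginine, had 88.4 ± 19.4 and 124 ± 18.2 FPKM (0.49). Neither passed, with adjusted p of 0.0886 and 0.123. Grk2, called in Ang II vs. Control, had 16.3 ± 0.570 FPKM in Ang II and 14.4 ± 0.501 FPKM in QDG, also with no overlap (log2 fold change -0.17, adjusted p = 0.161).

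For QDG vs. Control, 0 of the 67 passed at an adjusted p under 0.05 by limma, and 13 had an unadjusted p under 0.05, where 0.129% and 14.4% of all genes did. The adjusted count was 3 without Control mouse 2, 2 without Ang II mouse 3, and 1 without Control mouse 5 or without QDG mouse 4. Hsp90aa1 and Hsp90ab1, chaperones that hold endothelial nitric oxide synthase in its active form, had the lowest adjusted p, 0.0627 for both. Hsp90aa1 had 126 ± 20.9 FPKM in Control, 105 ± 12.2 FPKM in Ang II and 79.5 ± 10.5 FPKM in QDG (log2 fold change vs. Control -0.66). Hsp90ab1 had 407 ± 30.3, 366 ± 14.9 and 335 ± 12.04 FPKM (-0.28). For both genes every QDG mouse was below every Control mouse, which was so for 0.857% of all genes. Plcb3, which the endothelin receptors activate through Gq proteins, had 8.33 ± 0.314 FPKM in Control and 10.05 ± 0.545 FPKM in QDG (0.24, adjusted p = 0.127), and Arrb2, an arrestin of G protein-coupled receptors, had 3.93 ± 0.675 and 5.75 ± 1.28 FPKM (0.44, adjusted p = 0.165).

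The genes whose levels were most like those of each member over the 15 mice are given as a description, as Pearson's r on the log2(FPKM + 1) scale. For Nos3 these were Notch1 (r = 0.95) and Jak3 (0.93). For Npr1 they were Chst8 (0.92) and Prkcd (0.90), and for Ednrb Foxq1 (0.85) and Gm43672 (0.79). Gucy1a1 was nearest to Eef1b2 and Colec12 (0.87 each), Gucy1b1 to Dapk2 (0.84) and Gm13655 (0.83), Pde5a to Grsf1 (0.85) and Miga1 (0.83), and Ece1 to Cct4 (0.89) and 1110002L01Rik (0.88). The mice share groups, and each named gene is the nearest of 12364, so no test is attached to these values.

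Endothelin 1 and its type B receptor are known to be abundant in the collecting duct of the inner medulla, and markers of these cells are given beside Ednrb. The 5 inner medulla and thin limb markers measured summed to 409 to 794 FPKM in Control, 311 to 690 FPKM in Ang II and 520 to 780 FPKM in QDG. All 5 differences were positive in QDG vs. Ang II, as 5729 of the 12364 genes were, with a median log2 fold change of 0.68, and none passed the test. The summed level of 8 principal cell markers of the collecting duct was 201 to 421, 195 to 427 and 281 to 498 FPKM. The part of these markers in the values of Ednrb was not tested.

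Other processing of the table of genes moved Npr1 across the threshold in 5 of 11 cases and Nos3 in none. Over these 11 the log2 fold change of Nos3 in Ang II vs. Control was 0.47 to 0.83 and that of Npr1 0.39 to 0.56. Tested instead as 1 of 28812 transcripts, Nos3-201 had an adjusted p of 0.0650 with the same log2 fold change.

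**Figure D5:**
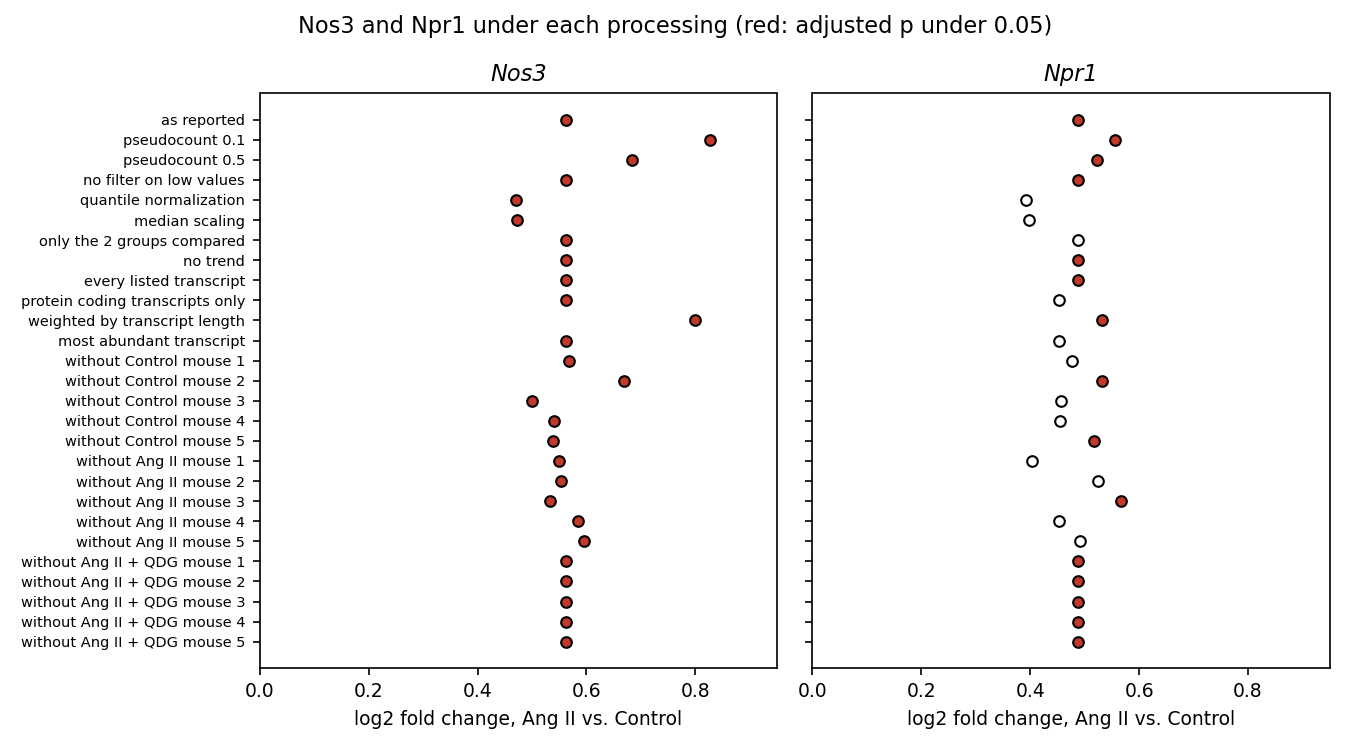
Log2 fold change of Nos3 (left) and Npr1 (right) in Ang II vs. Control (horizontal axes, starting at 0) as reported and under each other processing, 1 row each, red where the adjusted p was under 0.05 and white where it was not. Nos3 is red in every row, and Npr1 is white in 5 of the 11 other ways of processing and in 7 of the 15 fits without 1 mouse.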

How the data were processed

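RNA sequencing of the kidneys of 15 mice was used, 5 per group as GEO's labels assign them. Per the labels, the mm10 build and limma were part of the authors' processing, and the aligner and counter are not given in the sources used here. The authors deposited FPKM per transcript, as inferred here, since no unit is named: values multiplied by transcript length were whole multiples of 1 constant per mouse, within 0.05, for 98.4% to 98.7% of values under 200 reads. That constant gives the implied totals. Of 31301 Ensembl transcripts 31254 matched GENCODE M21 (release 21). FPKM of the 28871 annotated transcripts present in all 15 files were summed per gene. The Control files and the others listed different transcripts, 1423 and 2256 of them in only 1 of these sets.

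Genes that reached 1 FPKM in 5 or more mice were tested on log2(FPKM + 1) with limma 3.58.1 (R 4.3.3) with a trend, with all 15 mice in 1 fit and 12 residual degrees of freedom, two-sided, with Benjamini-Hochberg adjustment over 12364 genes. The pseudocount of 1 understates the changes of low genes. Exact permutation tests used all 252 divisions of 5 against 5. The study's methods give 5 mice per group, the labels give no pairing, and p-values measure the spread between these mice. The members, lists and tests were chosen with earlier results of these data known. Named pathway genes were all called ones and those with the smallest p up to 12 in all. The scripts were tested on simulated data. Alternatives covered pseudocount, filter, scaling, samples in the fit, trend, choice of transcripts and leaving out each mouse. Of the marker genes listed, 1 is not reported here and enters no marker sum.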

Additional observations from a re-analysis of the deposited data

Results flagged for a closer look

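In 1 of the 27 groups of 5 mice examined (9 genes in 3 groups), a mouse lay far from the others. Npr1 in Ang II + QDG mouse 3 was 8.98 FPKM, and its gap to the next mouse was 0.765 of the range of the group, above the critical value of 0.71. Chance alone gives such a mouse in about 1 of 20 groups. Without this mouse the log2 fold change of Npr1 in Ang II + QDG vs. Ang II was -0.15 and in Ang II + QDG vs. Control 0.34, and neither passed the adjusted threshold.

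A signal outside the comparisons was found in the same mouse. The transcript Ednrb-202, which is not listed for Control mice, had 6.96 FPKM in Ang II + QDG mouse 3 and at most 0.317 FPKM in the other 9 mice that list it, while Ednrb-203 was listed at 0 in this mouse only. The cause was not tested.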

How the results depend on the processing

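No paired analysis was possible because the labels carry no replicate numbers, and the numbers used here only name the mice within a group. In Ang II vs. Control the 2 members called became 1 with quantile normalization, median scaling, only the 2 groups compared, protein coding transcripts only, or the most abundant transcript per gene, and 1 to 2 without single mice. Of the 67 other pathway genes the 4 called became 2 with quantile normalization or median scaling, 1 with only the 2 groups compared or protein coding transcripts only, 0 with the most abundant transcript, and 1 to 6 without single mice. In Ang II + QDG vs. Ang II the 1 other pathway gene called became 0 with each of these 5 settings, 2 when transcripts were weighted by length, and 0 to 1 without single mice. In Ang II + QDG vs. Control the 0 members called became 0 to 1 without single mice, and the 0 other pathway genes became 2 with median scaling or with every listed transcript (counted as 0 in files that do not list it), and 0 to 3 without single mice. Directions turned for small differences: Ece1 in Ang II + QDG vs. Ang II was 0.0042 without Ang II mouse 1 and 0.074 without Ang II + QDG mouse 4, Npr1 was 0.011 without Ang II mouse 1 (down to -0.19 and -0.15 for these genes without other mice), and Pde5a in Ang II + QDG vs. Control was -0.028 after quantile normalization and -0.0092 after median scaling. The causes were not tested. Fewer mice or genes enter some of these fits by construction.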
